A study of Mus musculus with 6 samples.

Results

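The TGF-beta and BMP pathway was followed through 43 genes, chosen by name, out of 57180 gene identifiers in RNA-seq of mouse corneal endothelial cells. The 43 comprise ligands, latent binding proteins, receptors, Smads, antagonists and targets, and all 43 were found in the files and passed the filter on low counts. Corneal endothelial cells line the back of the cornea on Descemet membrane and keep the cornea clear by pumping fluid. The first group had 3 libraries from Col8a2Q455K/Q455K/Tcf4+/- mice, homozygous for the Col8a2 mutation and heterozygous for a Tcf4 knockout, and is called Tcf4+/- below. The second had 3 libraries from Col8a2Q455K/Q455K mice with both Tcf4 alleles and is called Col8a2. Both groups therefore carry the mutant collagen, which is used as a model of Fuchs endothelial corneal dystrophy, and no cornea with intact Col8a2 is analysed here. The labels give no age or sex and do not say whether a library came from 1 animal, and a p-value here reflects library-to-library spread that may be partly technical. The question put to the pathway was whether its genes differ when 1 of the Tcf4 alleles is lost.

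TGF-beta ligands are secreted bound to a propeptide and to latent binding proteins, and once released they bring type II and type I receptors together, which phosphorylate Smad2 and Smad3. BMP ligands use related receptors to phosphorylate Smad1, Smad5 and Smad9, and both groups of Smads enter the nucleus with Smad4. Inhibitory Smads, the co-repressors Ski and Skil and secreted antagonists limit the signal. In the eye, TGF-beta is known for its part in the immune privilege of the anterior chamber, and in cultured corneal endothelium it is known to restrain proliferation and to favour a fibroblast-like state.

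Total estimated counts were between 30344161 and 54265479 per library, the lowest in Tcf4+/- replicate 3. Tcf4 was at 440, 599 and 373 CPM in the Tcf4+/- libraries, against 313, 470 and 430 CPM in the Col8a2 libraries, where CPM is the count relative to library size after TMM scaling. It was thus not lower in the libraries labelled Tcf4+/- (log2 fold change 0.22 ± 0.33 SE, edgeR adjusted p = 0.99988), and the labels do not say which exons the knockout allele lacks, so the group names below are labels that the count does not check. The defining markers of corneal endothelium were present in every library. The 12 markers summed to 23705, 26196 and 11930 CPM in the Tcf4+/- libraries, against 15039, 19112 and 27318 CPM in the Col8a2 libraries. Lens markers summed to 87.1, 4017 and 10657 CPM in the Tcf4+/- libraries, against 607, 33.5 and 275 CPM in the Col8a2 libraries, so Tcf4+/- replicates 2 and 3 stood apart. Of the 10 lens markers, 9 were tested, all 9 of which were fitted higher in the Tcf4+/- group and 0 called. Their log2 fold changes ran from 0.87 (Bfsp2) to 5.38 (Mip), with edgeR unadjusted p from 0.00772 (Crybb3) to 0.215 (Bfsp2). Stroma markers (9567 to 22065 CPM), epithelium markers (2226 to 6608 CPM) and pigment cell markers (343 to 1509 CPM) were found in all 6 libraries. Erythroid markers summed to 6127, 1362 and 2943 CPM in the Tcf4+/- libraries, against 1296, 531 and 1967 CPM in the Col8a2 libraries, with 5 of 5 fitted higher, 3 of them at an unadjusted p under 0.05, and 0 called. All 7 vascular and all 7 pericyte and trabecular markers were also fitted higher in the Tcf4+/- group with 0 called, and the part of other cells in the levels below was not tested.

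No member of the pathway passed the test between the groups. Of 43 members, 0 were called higher and 0 lower in the Tcf4+/- group by edgeR's quasi-likelihood test, with a Benjamini-Hochberg adjusted p of 0.99988 for each of the 43. The background was the same, with 0% of 17639 genes called higher and 0% called lower. At an unadjusted p under 0.05 there was 1 member, Ltbp4, which is 2.33% of the members against 2.42% of all genes tested. DESeq2 called 0.364% of 20874 genes higher and 0.149% lower, and 0 of the 43 members, and limma voom called 0 members. The libraries of the groups did not overlap for 2 members, Tgfbr1 and Smad7, which is 4.65% of the members against 8.1% of all genes tested. The median log2 fold change of the members was -0.14, beside 0.0011 over all genes tested, with 27 members fitted lower and 16 higher. That median was 0.07 without Tcf4+/- replicate 3 and 0.17 without Col8a2 replicate 2, so its sign rests on single libraries. In bulk RNA, fewer cells of a type and less RNA per cell cannot be told apart.

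**Figure D1:**
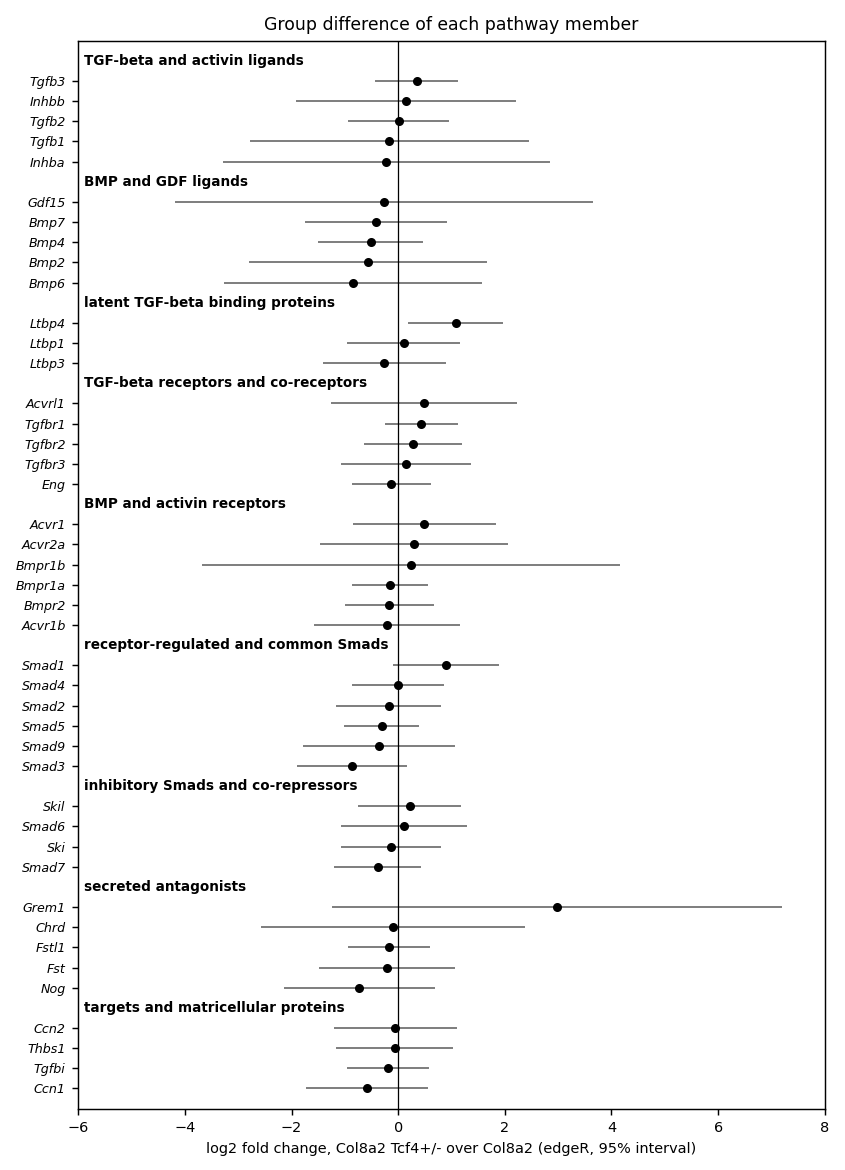
Fitted log2 fold change (Col8a2 Tcf4+/- over Col8a2, x axis) of each of the 43 members, by role, with the 95% interval of the edgeR fit as a bar. The interval of Ltbp4 alone lies on one side of 0, from 0.21 to 1.95, before any adjustment for the number of genes tested.

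For 7 members the 95% interval of the fold change lay within 2-fold in both directions. These were Tgfb2, Eng, Bmpr1a, Bmpr2, Smad4, Fstl1 and Tgfbi. For the other 36 members the interval still held a change of 2-fold in at least one direction. The widest were those of Grem1, from -1.22 to 7.18 on the log2 scale, Gdf15, from -4.17 to 3.63, and Bmpr1b, from -3.65 to 4.14, each of which had 0 counts in 1 library.

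The levels of the members, per transcript length, spread over 3 orders of magnitude. Levels between genes, and sums over genes, are given in TPM, rescaled to the same sum over the genes tested in each library. The mean over the 6 libraries was 10 TPM or more for 22 members, 100 TPM or more for 5, and under 1 TPM for 3, which were Inhba, Bmpr1b and Gdf15. The 5 most abundant were Ltbp3 (315 TPM), Ccn1 (238 TPM), Fstl1 (229 TPM), Thbs1 (145 TPM) and Ccn2 (114 TPM), all of which encode secreted proteins. Within the 9 roles there were 34 pairs of genes next to each other in level, and in 17 of these pairs the order was the same in 6 of 6 libraries. An exact two-sided sign-flip permutation test over the 6 libraries gave p = 0.03125 for each of those 17 pairs, the smallest it can give. After adjustment over the 34 pairs its p was 0.0625, so 0 pairs passed at 0.05. The pairs were set by mean levels in these same libraries, here and for Tgfb3 and Tgfb2 below. With that smallest p, the adjusted p depends on how many pairs reach it, so the test cannot decide which orders hold.

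**Figure D2:**
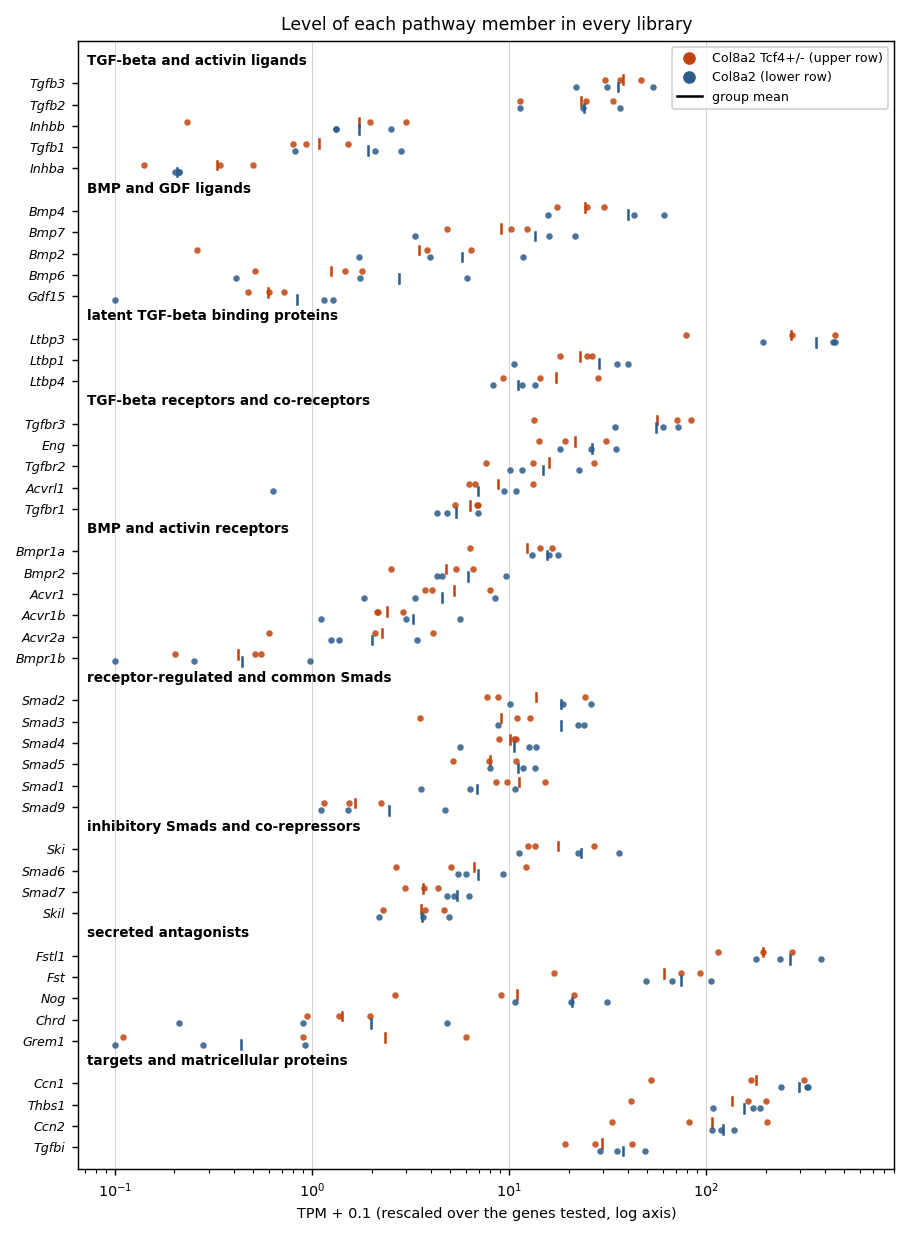
Level of each of the 43 members in every library (x axis, TPM + 0.1 on a log axis, rescaled over the genes tested), by role, with Tcf4+/- libraries in the upper row and Col8a2 libraries in the lower row of each gene and a bar at each group's mean. The secreted proteins Ltbp3, Ccn1 and Fstl1 stand furthest right, and the colours are mixed in nearly every row.

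Among the TGF-beta ligands, Tgfb3 and Tgfb2 made up nearly all of the message and Tgfb1 very little. Tgfb3, the ligand of highest level, was at 91.1, 141 and 141 CPM in the Tcf4+/- libraries, against 97.9, 133 and 62.5 CPM in the Col8a2 libraries. Tgfb2, the isoform best known from the aqueous humour, was at 76.0, 125 and 51.8 CPM in the Tcf4+/- libraries, against 49.0, 123 and 79.4 CPM in the Col8a2 libraries. The groups overlapped for both, and replicate 2 of either group was among its high libraries. Tgfb1, the isoform most studied in wound fibrosis, was at 1.53 ± 0.271 CPM in the Tcf4+/- libraries and 1.71 ± 1.02 CPM in the Col8a2 libraries (SD, n = 3 each). Per length, Tgfb3 accounted for 62.3 ± 11.4% of the 3 isoforms in the Tcf4+/- libraries and 58.1 ± 11.0% in the Col8a2 libraries, and Tgfb1 for 1.66 ± 0.76% in the Tcf4+/- libraries and 3.25 ± 2.41% in the Col8a2 libraries. In TPM, Tgfb3 was above Tgfb2 in 5 of 6 libraries, the exception being Col8a2 replicate 3 (exact permutation p = 0.0625, adjusted p = 0.106). The activin subunit genes Inhbb and Inhba averaged 1.63 and 0.167 TPM over the 6 libraries.

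The BMP ligands were led by Bmp4, followed by Bmp7 in every library. Bmp4, which acts in the formation of the anterior segment, was at 35.6, 34.7 and 33.3 CPM in the Tcf4+/- libraries, against 60.2, 68.8 and 19.4 CPM in the Col8a2 libraries. The Tcf4+/- libraries lay close together and inside the wide range of the Col8a2 libraries. The log2 fold change of Bmp4 was -0.52 ± 0.43 (SE, n = 3 each, edgeR adjusted p = 0.99988). Bmp4 made up 65.4 ± 6.9% of the summed Bmp2, Bmp4, Bmp6 and Bmp7 TPM in the Tcf4+/- libraries and 67.8 ± 7.1% in the Col8a2 libraries. Bmp7, also needed for eye development, averaged 30.2 ± 11.7 CPM in the Tcf4+/- libraries and 40.5 ± 26.4 CPM in the Col8a2 libraries. All 5 BMP and GDF ligands were fitted lower, by -0.27 to -0.84 on the log2 scale, with unadjusted p of 0.258 or more. The 4 summed BMP ligands stood at 40.3, 49.2 and 23.5 TPM in the Tcf4+/- libraries, against 64.3, 100.2 and 20.8 TPM in the Col8a2 libraries. The single lowest library was a Col8a2 one, and the exact permutation test over the 6 libraries gave p = 0.5, where 0.1 is the smallest it allows.

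The other BMP and GDF ligands varied widely between libraries. Bmp2 was at 11.7, 20.2 and 0.641 CPM in the Tcf4+/- libraries, against 12.7, 30.6 and 4.94 CPM in the Col8a2 libraries. Its highest library was 47.7 times its lowest, the largest such span among the 40 members with a count in every library. Bmp6 ran from 1.34 to 5.64 CPM in the Tcf4+/- libraries, against 0.553 to 16 CPM in the Col8a2 libraries. The exons of Bmp6 share 224 bases with Txndc5 on the other strand, which had 71716 counts over the 6 libraries beside 1575 for Bmp6. Strand was not stated to be kept, so reads of the shared bases cannot be told apart. Gdf15, a stress-induced member of the family, was at 0.472 to 0.743 CPM in the Tcf4+/- libraries, against 1.21, 1.07 and 0 CPM in the Col8a2 libraries, where 0 counts in Col8a2 replicate 3 allow up to 0.0593 CPM for counting error only.

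**Figure D3:**
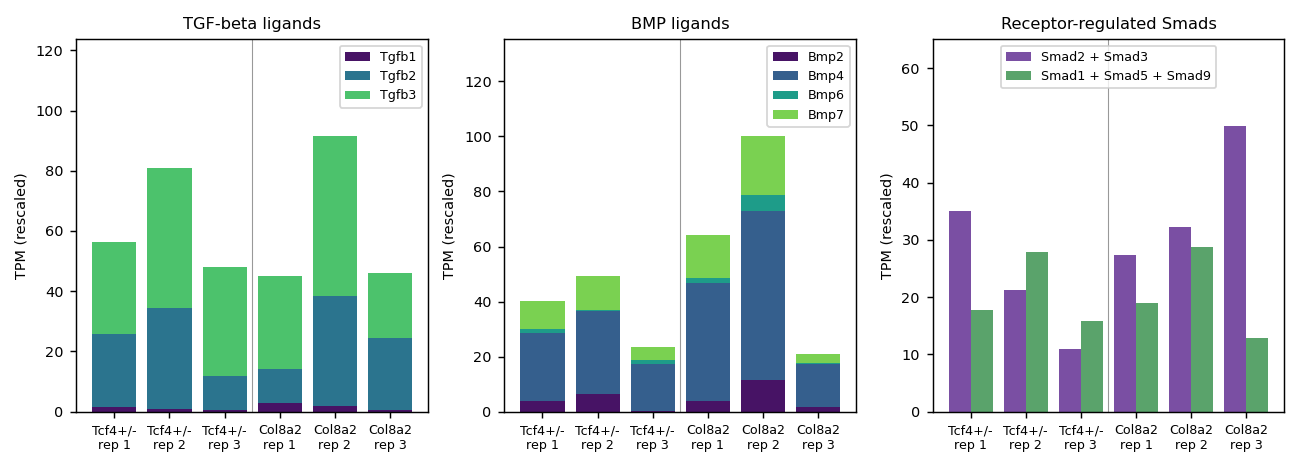
Stacked TPM of the TGF-beta ligands (left) and BMP ligands (middle) and the summed TPM of Smad2 and Smad3 beside that of Smad1, Smad5 and Smad9 (right), in the 3 Tcf4+/- and the 3 Col8a2 libraries. Tgfb3 and Tgfb2 fill the left bars, Bmp4 most of the middle ones, and Smad2 with Smad3 exceeds the BMP Smads most in Col8a2 replicate 3.

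Latent TGF-beta binding proteins hold the inactive ligand in the extracellular matrix, and Ltbp3 had the highest mean TPM of all members. In CPM, which is not scaled to length, Thbs1 was above Ltbp3 in every library. Ltbp3 was at 494, 814 and 192 CPM in the Tcf4+/- libraries, against 379, 663 and 752 CPM in the Col8a2 libraries. Tcf4+/- replicate 3 was the lowest and the groups overlapped. Ltbp3 made up 82.4 ± 13.4% of the TPM of Ltbp1, Ltbp3 and Ltbp4 in the Tcf4+/- libraries and 88.5 ± 7.6% in the Col8a2 libraries. Ltbp1 averaged 93.0 ± 33.3 CPM in the Tcf4+/- libraries and 86.6 ± 46.1 CPM in the Col8a2 libraries (SD, n = 3 each).

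Ltbp4, a binding protein that also takes part in elastic fibre assembly, had the smallest unadjusted p of the 43 members. It was at 40.2, 123 and 75.9 CPM in the Tcf4+/- libraries, against 37.2, 42.1 and 33.8 CPM in the Col8a2 libraries. Tcf4+/- replicates 2 and 3 lay above the Col8a2 range, and Tcf4+/- replicate 1 lay within it. The log2 fold change was 1.08 ± 0.39 (SE, n = 3 each), with an unadjusted p of 0.0203 and an edgeR adjusted p of 0.99988. Lens markers were also highest in Tcf4+/- replicates 2 and 3, and so were pericyte and trabecular markers. The latter summed to 467, 1021 and 883 CPM in the Tcf4+/- libraries, against 592, 669 and 229 CPM in the Col8a2 libraries. Without Tcf4+/- replicates 2 and 3, with 1 Tcf4+/- library assumed to vary like the Col8a2 ones, the log2 fold change of Ltbp4 was 0.09. That follows from the CPM above, as only replicates 2 and 3 lay above the Col8a2 range, and it is no test of cell content. On the TPM scale, per length, Ltbp4 was at 9.19, 28.2 and 14.3 TPM in the Tcf4+/- libraries, against 8.19, 11.5 and 13.4 TPM in the Col8a2 libraries. Mitochondrial tRNA genes took 15.6% and 15.8% of the TPM in Tcf4+/- replicates 2 and 3 alone, which lowers TPM of other genes there by construction. The part of RNA from lens or other cells in the Ltbp4 difference was not tested.

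TCF4 binds E-boxes, written CANNTG, and Smads bind the palindrome GTCTAGAC, so promoter windows of 300 bases (250 before and 50 after the start) were read for both. RefSeq windows on build GRCm38.p6 were found for 30 of the 43 members, 39 windows in all, while the counts were made on GRCm39. A CANNTG was in 21 of the 39 windows (53.8%), against 72.3% of 32851 windows of all genes, and CACCTG, or CAGGTG on the other strand, in 20.5% against 20.2%. CAGCTG was in 10.3% of member windows against 16.3% of all windows, and CAGATG, or CATCTG on the other strand, in 7.69% against 17.15%. GTCTAGAC was in 1 member window, that of Smad6, or 2.56%, against 0.213% of all windows. GGCGCC, a GC-rich letter run known from BMP Smad binding, was in 35.9% of member windows against 11.9% of all windows. The member windows held 65.5% G and C, against 53.8% over all windows. CACCTG is one of the forms of CANNTG, the other motifs read the same on both strands, and windows of 1 gene can overlap. A match describes letters and not binding. The windows of Ltbp4, which has the smallest p, at the start with the most E-boxes, and of Bmp4, the leading BMP ligand, follow with each CANNTG in capitals, and that of Smad6 with GTCTAGAC in capitals. They run 5′ to 3′ on the strand of the gene.
Ltbp4, chr7:27333614-27333913, - strand: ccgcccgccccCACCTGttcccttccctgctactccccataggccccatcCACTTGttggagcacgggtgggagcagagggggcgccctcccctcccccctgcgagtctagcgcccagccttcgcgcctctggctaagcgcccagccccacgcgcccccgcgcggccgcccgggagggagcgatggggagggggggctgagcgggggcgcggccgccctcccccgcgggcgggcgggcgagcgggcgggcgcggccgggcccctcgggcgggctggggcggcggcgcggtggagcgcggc
Bmp4, chr14:46390620-46390919, - strand: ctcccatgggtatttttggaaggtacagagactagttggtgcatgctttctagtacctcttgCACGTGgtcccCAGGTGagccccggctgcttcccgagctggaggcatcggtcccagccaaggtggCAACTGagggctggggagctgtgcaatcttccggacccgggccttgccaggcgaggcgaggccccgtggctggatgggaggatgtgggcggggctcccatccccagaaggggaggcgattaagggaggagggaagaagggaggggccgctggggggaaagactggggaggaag
Smad6, chr9:64022010-64022309, - strand: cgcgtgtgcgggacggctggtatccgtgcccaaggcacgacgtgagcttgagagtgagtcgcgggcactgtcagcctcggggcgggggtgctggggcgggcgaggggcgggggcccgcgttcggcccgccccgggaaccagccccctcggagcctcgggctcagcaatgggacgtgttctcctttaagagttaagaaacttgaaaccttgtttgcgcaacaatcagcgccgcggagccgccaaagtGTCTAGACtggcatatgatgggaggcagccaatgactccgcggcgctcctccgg

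Among the TGF-beta receptors, the co-receptor betaglycan, encoded by Tgfbr3, had the highest level. Tgfbr3, which presents TGF-beta2 to the signalling receptors, was at 392, 465 and 93.0 CPM in the Tcf4+/- libraries, against 199, 274 and 385 CPM in the Col8a2 libraries. Its 3 Tcf4+/- libraries held both the highest and the lowest value. Per length it stood at 56.0 ± 37.5 TPM in the Tcf4+/- libraries and 55.4 ± 19.3 TPM in the Col8a2 libraries. The type II receptor Tgfbr2 averaged 117 ± 57.9 CPM in the Tcf4+/- libraries and 97.0 ± 36.8 CPM in the Col8a2 libraries, and in TPM was above the type I receptor Tgfbr1 in 6 of 6 libraries.

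Tgfbr1, the type I receptor that phosphorylates Smad2 and Smad3, was the only member with every Tcf4+/- library above every Col8a2 library. It was at 35.2, 35.1 and 32.8 CPM in the Tcf4+/- libraries, against 23.1, 29.5 and 23.8 CPM in the Col8a2 libraries. The log2 fold change was 0.43 ± 0.30 (SE, n = 3 each), higher in 3 of 3 Tcf4+/- libraries, with an unadjusted p of 0.176 and an edgeR adjusted p of 0.99988. Per length the groups overlapped, at 6.78, 6.81 and 5.17 TPM in the Tcf4+/- libraries, against 4.21, 6.84 and 4.74 TPM in the Col8a2 libraries.

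Acvrl1 and Eng, a type I receptor and a co-receptor best known from blood vessels, were also present. Eng was at 56.4, 89.3 and 49.4 CPM in the Tcf4+/- libraries, against 54.0, 85.9 and 73.2 CPM in the Col8a2 libraries. Acvrl1 was at 12.2, 28.6 and 15.8 CPM in the Tcf4+/- libraries, against 1.68, 15.4 and 23.3 CPM in the Col8a2 libraries, with Col8a2 replicate 1 far below the other libraries. The 7 vascular endothelium markers summed to 74.5, 154 and 69.3 CPM in the Tcf4+/- libraries, against 90.4, 59.8 and 23.7 CPM in the Col8a2 libraries. Of the 7, 1 lacked a count in some library, Tie1, with 0 counts in Col8a2 replicate 3. Col8a2 replicate 3, the lowest for those markers, had the second highest Acvrl1, and the part of vessels in either level was not tested.

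The BMP and activin receptors were led by Bmpr1a, a type I BMP receptor. It was at 77.0, 88.9 and 43.3 CPM in the Tcf4+/- libraries, against 72.4, 79.0 and 82.5 CPM in the Col8a2 libraries. Apart from Tcf4+/- replicate 3 the libraries lay between 72.4 and 88.9 CPM. Bmpr1a was above the type II receptor Bmpr2 in 6 of 6 libraries, with means of 13.8 and 5.39 TPM. Acvr1, Acvr1b and Acvr2a, type I and type II receptors shared with activins, averaged 4.79, 2.72 and 2.04 TPM over the 6 libraries. The exons of Acvr2a share 446 bases with Orc4 on the other strand. Bmpr1b was at 0.641 to 2.18 CPM in the Tcf4+/- libraries, against 0, 3.53 and 0.573 CPM in the Col8a2 libraries, where 0 counts in Col8a2 replicate 1 allow up to 0.0637 CPM. The unadjusted p of these 6 receptors ran from 0.428 to 0.892.

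Smad1 and Smad3, one from each arm of the pathway, had the smallest p after Ltbp4 and were fitted in opposite directions. Smad1, a BMP Smad, was at 22.2, 40.5 and 32.6 CPM in the Tcf4+/- libraries, against 17.8, 24.1 and 9.07 CPM in the Col8a2 libraries. Tcf4+/- replicate 1 lay below Col8a2 replicate 2, so the groups overlapped by that pair of libraries. The log2 fold change was 0.90 ± 0.44 (SE, n = 3 each), with an unadjusted p of 0.0658 and an edgeR adjusted p of 0.99988. Smad3, a TGF-beta Smad, was at 49.9, 56.8 and 20.2 CPM in the Tcf4+/- libraries, against 41.6, 84.2 and 106 CPM in the Col8a2 libraries. Col8a2 replicate 1 lay below Tcf4+/- replicates 1 and 2, and the log2 fold change was -0.87 ± 0.45 (SE, n = 3 each, unadjusted p = 0.0844, edgeR adjusted p = 0.99988). With Tcf4+/- replicate 1 alone against the Col8a2 libraries, the log2 fold change was 0.38 for Smad1 and -0.64 for Smad3.

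Of the other Smads, Smad2, Smad4 and Smad5 overlapped in level and Smad9 was lowest. Smad2, the second TGF-beta Smad and the Smad of highest mean level per length, was at 59.2, 33.6 and 33.7 CPM in the Tcf4+/- libraries, against 44.7, 24.3 and 74.5 CPM in the Col8a2 libraries. Smad5, a BMP Smad, was at 46.8, 64.2 and 39.3 CPM in the Tcf4+/- libraries, against 72.8, 67.8 and 46.1 CPM in the Col8a2 libraries. The log2 fold change of Smad5 was -0.31 ± 0.31 (SE, n = 3 each, edgeR adjusted p = 0.99988), and the groups overlapped for both genes. Smad4, the partner of both arms, averaged 28.7 ± 3.29 CPM in the Tcf4+/- libraries and 28.8 ± 11.3 CPM in the Col8a2 libraries. Smad9, the least abundant BMP Smad, was at 6.55 to 10.5 CPM in the Tcf4+/- libraries, against 5.18 to 19.0 CPM in the Col8a2 libraries, and in TPM was below Smad1 in 6 of 6 libraries. Between Smad2, Smad3, Smad4, Smad5 and Smad1 no neighbours in TPM kept their order in all 6 libraries.

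Summed by arm, the TGF-beta Smads stood at 35.1, 21.2 and 11.0 TPM in the Tcf4+/- libraries, against 27.3, 32.3 and 49.8 TPM in the Col8a2 libraries. The BMP Smads stood at 17.7, 27.9 and 15.8 TPM in the Tcf4+/- libraries, against 18.9, 28.7 and 12.8 TPM in the Col8a2 libraries. Their ratio was 1.98, 0.760 and 0.699 in the Tcf4+/- libraries, against 1.45, 1.13 and 3.89 in the Col8a2 libraries, so the groups overlapped (exact permutation test, p = 0.3). Over 14 such sums, ratios and shares across the pathway, tested on a log2 scale, the smallest exact p was 0.3 and the smallest adjusted p 0.862. On TPM without mitochondrial tRNA genes the BMP Smads averaged 23.1 ± 8.59 TPM in the Tcf4+/- libraries and 20.1 ± 8.01 TPM in the Col8a2 libraries, and the exact permutation p of the 7 sums ran from 0.3 to 0.7.

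Of the inhibitory members, Smad7 had every Tcf4+/- library below every Col8a2 library. Smad7, an inhibitory Smad induced by TGF-beta, was at 16.2, 13.9 and 14.1 CPM in the Tcf4+/- libraries, against 19.0, 19.8 and 19.1 CPM in the Col8a2 libraries. Its span over the 6 libraries, 1.43-fold, was the smallest of the members with a count in every library. The log2 fold change was -0.39 ± 0.36 (SE, n = 3 each), lower in 3 of 3 Tcf4+/- libraries, with an unadjusted p of 0.306 and an edgeR adjusted p of 0.99988. Smad6, which limits BMP signals, was at 12.9, 32.0 and 8.71 CPM in the Tcf4+/- libraries, against 16.2, 20.1 and 13.6 CPM in the Col8a2 libraries.

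Ski, a co-repressor of Smad complexes, had the highest level of this role. It was at 50.5, 113 and 71.1 CPM in the Tcf4+/- libraries, against 47.2, 123 and 87.7 CPM in the Col8a2 libraries. In both groups replicate 2 was highest and replicate 1 lowest. Its relative Skil averaged 22.3 ± 5.46 CPM in the Tcf4+/- libraries and 19.2 ± 8.51 CPM in the Col8a2 libraries.

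**Figure D4:**
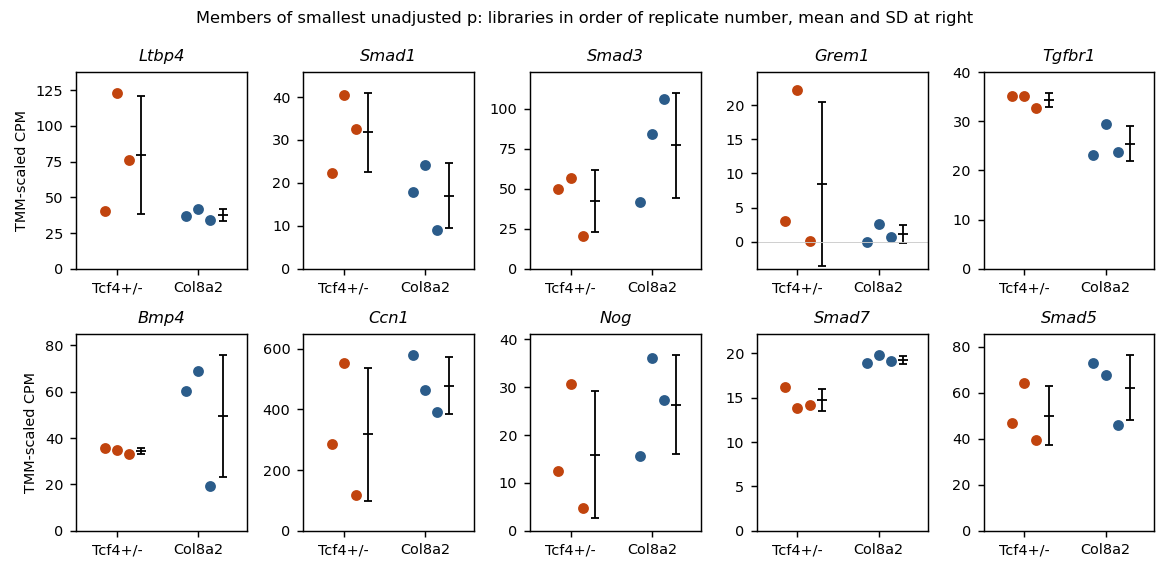
TMM-scaled CPM (y axis) of the 10 members of smallest unadjusted p in each Tcf4+/- library (left) and each Col8a2 library (right), in order of replicate number, with the mean and SD of each group at the right of its points. Tgfbr1 and Smad7 are the genes whose groups do not overlap, and Grem1 is carried by Tcf4+/- replicate 2 at 22.2 CPM.

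The secreted antagonists were led by Fstl1 and Fst. Fstl1, a follistatin-like glycoprotein that binds BMP4, was at 361, 541 and 346 CPM in the Tcf4+/- libraries, against 404, 584 and 418 CPM in the Col8a2 libraries. The groups overlapped, with replicate 2 the highest in both. Fst, follistatin, which binds activins, averaged 100.5 ± 66.0 CPM in the Tcf4+/- libraries and 116 ± 46.5 CPM in the Col8a2 libraries, and was again lowest in Tcf4+/- replicate 3, at 25.5 CPM.

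Noggin was the most abundant of the BMP antagonists Nog, Chrd and Grem1. Nog was at 12.4, 30.6 and 4.69 CPM in the Tcf4+/- libraries, against 15.5, 36.2 and 27.4 CPM in the Col8a2 libraries. The groups overlapped, with a log2 fold change of -0.73 ± 0.62 (SE, n = 3 each, edgeR adjusted p = 0.99988), or -1.62 without Tcf4+/- replicate 2. Chrd, chordin, averaged 4.26 ± 1.14 CPM in the Tcf4+/- libraries and 4.57 ± 5.63 CPM in the Col8a2 libraries. Grem1, gremlin, was at 2.97, 22.2 and 0.0675 CPM in the Tcf4+/- libraries, against 0, 2.54 and 0.652 CPM in the Col8a2 libraries, where 0 counts in Col8a2 replicate 1 allow up to 0.0637 CPM. The fitted log2 fold change of Grem1 was 2.98 ± 1.88 (SE, n = 3 each, edgeR adjusted p = 0.99988), the largest of the members, and it rested on Tcf4+/- replicate 2, without which it was 0.51. That library also had the highest sums of stroma (22065 CPM), vascular (154 CPM), pericyte and trabecular (1021 CPM) and pigment cell markers (1509 CPM). The part of these cells in the Grem1 level was not tested.

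The matricellular targets were abundant, and all 4 targets were lowest in CPM in the same library, Tcf4+/- replicate 3. Ccn1, a matricellular protein induced by TGF-beta and by Yap, was at 286, 552 and 118 CPM in the Tcf4+/- libraries, against 579, 464 and 391 CPM in the Col8a2 libraries. Its log2 fold change was -0.59 ± 0.50 (SE, n = 3 each, edgeR adjusted p = 0.99988), and Tcf4+/- replicate 2 lay inside the Col8a2 range. Without that library the log2 fold change of Ccn1 was -1.24. Ccn2, connective tissue growth factor, was at 163, 422 and 87.7 CPM in the Tcf4+/- libraries, against 222, 203 and 272 CPM in the Col8a2 libraries. Thbs1, thrombospondin 1, which can release TGF-beta from its latent form, was at 863, 1080 and 284 CPM in the Tcf4+/- libraries, against 602, 766 and 960 CPM in the Col8a2 libraries. Tcf4+/- replicate 2 was the highest library for Ccn2 and Thbs1, and Tcf4+/- replicate 3 the lowest for Ccn1, Ccn2 and Thbs1. Summed, the 3 genes stood at 413, 720 and 127 TPM in the Tcf4+/- libraries, against 539, 617 and 564 TPM in the Col8a2 libraries (exact permutation test, p = 0.4). Tgfbi, a matrix protein induced by TGF-beta and mutated in human corneal dystrophies, averaged 74.4 ± 20.9 CPM in the Tcf4+/- libraries and 84.7 ± 30.6 CPM in the Col8a2 libraries.

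The spread of the members over the 6 libraries was near that of all genes. The median ratio of highest to lowest CPM was 3.68 for the members, beside 3.50 for all genes tested. Tcf4+/- replicate 3 held the lowest CPM of the 6 libraries for 20 of the 43 members (46.5%), against 22.6% of all genes tested. Among them were Ltbp3, Tgfbr3, Bmpr1a, Smad3, Fst, Fstl1, Nog, Ccn1, Ccn2 and Thbs1. It also held the lowest value of 9 of the 12 corneal endothelium markers, whose sum was 11930 CPM there against 15039 to 27318 CPM elsewhere, and it had the fewest counts. Col8a2 replicate 3 was lowest for 12 members (27.9%), against 16.2% of all genes tested. Those members include Bmp4, Bmp6 and Bmp7, Smad1 and Smad4. This library was also lowest for the sums of stroma, vascular, pericyte and trabecular, pigment cell, myeloid and Schwann cell markers. Its corneal endothelium sum, 27318 CPM, was the highest. The highest value lay in Tcf4+/- replicate 2 for 17 members (39.5%), against 13.8% of all genes tested, and in Col8a2 replicate 2 for 14 members (32.6%), against 18.4%. The part of cell content in these differences was not tested.

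**Figure D5:**
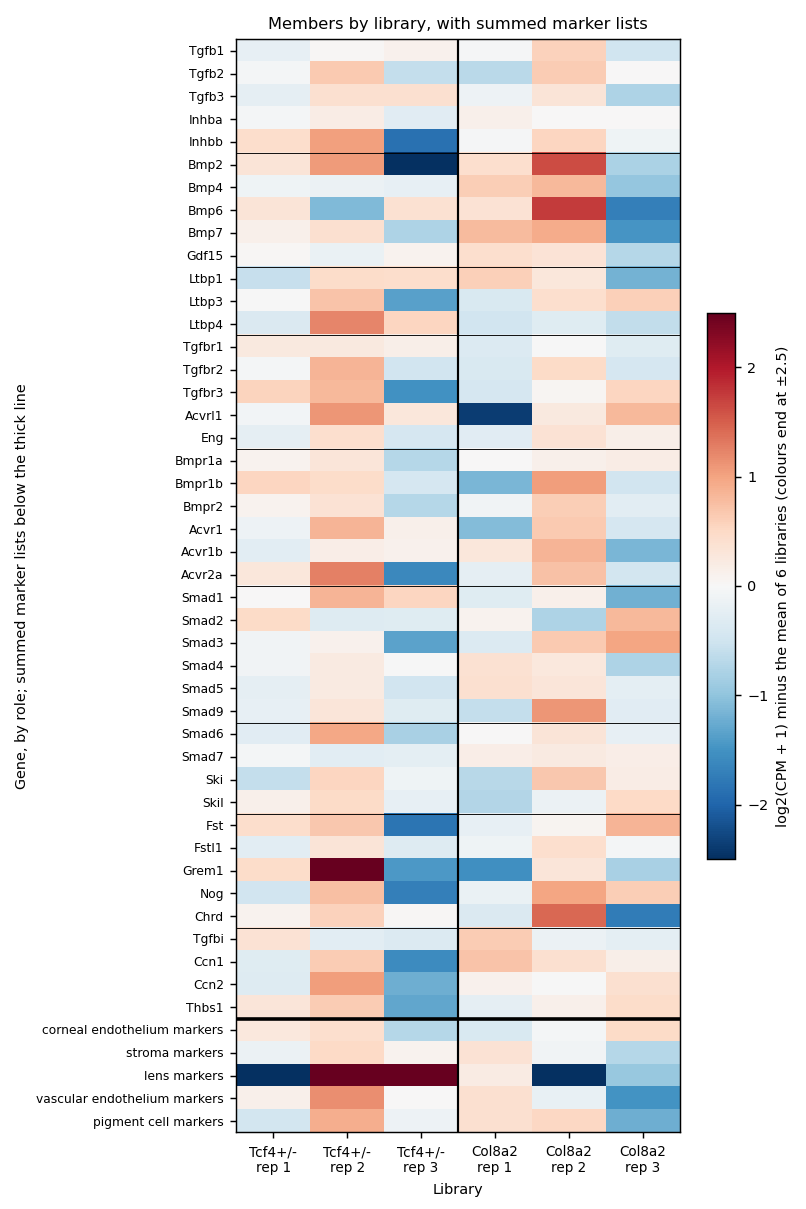
log2(CPM + 1) of each member minus its mean over the 6 libraries (colour), for the 3 Tcf4+/- and the 3 Col8a2 libraries (x axis), by role, with summed marker lists below the thick line. Tcf4+/- replicate 3 is blue for Ltbp3, Tgfbr3, Fst and the matricellular targets, Col8a2 replicate 3 is blue for the BMP ligands, and lens markers are red in Tcf4+/- replicates 2 and 3.

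A list of 50 other genes of the pathway gave no call either. Of these, 45 were tested, 0 were called higher and 0 lower by edgeR or DESeq2, and 2 had an unadjusted p under 0.05 (4.44%, against 2.42% of all genes tested). The groups did not overlap for 3 of the 45, Sostdc1, Bmper and Tsc22d1, or 6.67% against 8.1% of all genes tested. Their median log2 fold change was -0.17. Sostdc1, a secreted antagonist of BMP and Wnt, was at 12.5, 17.3 and 7.66 CPM in the Tcf4+/- libraries, against 22.0, 32.9 and 20.5 CPM in the Col8a2 libraries. Its groups did not overlap, with a log2 fold change of -1.0 ± 0.43 (SE, n = 3 each, unadjusted p = 0.0421, edgeR adjusted p = 0.99988). Bmper, a secreted modulator of BMP, was at 37.3, 71.2 and 45.6 CPM in the Tcf4+/- libraries, against 33.6, 24.4 and 5.89 CPM in the Col8a2 libraries. Its groups did not overlap either, with a log2 fold change of 1.27 ± 0.56 (SE, n = 3 each, unadjusted p = 0.0478, edgeR adjusted p = 0.99988). Fbn1, the microfibril protein that anchors latent TGF-beta, was at 42.7, 70.9 and 25.1 CPM in the Tcf4+/- libraries, against 104, 97.7 and 55.9 CPM in the Col8a2 libraries. Fstl3, a follistatin-like antagonist, was at 26.3, 40.1 and 19.3 CPM in the Tcf4+/- libraries, against 35.6, 43.1 and 55.9 CPM in the Col8a2 libraries. Fbn1 and Fstl3 had log2 fold changes of -0.89 ± 0.41 and -0.65 ± 0.36 (SE, n = 3 each). Both had an edgeR adjusted p of 0.99988, and their groups overlapped.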

How the data were processed

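RNA was extracted from corneal endothelial cells with the RNeasy Micro Kit, and libraries were made with SMART-Seq HT and Nextera XT, per the labels' protocols. The submitters' processing notes list build GRCm39, STAR, RSEM, DESeq2, fastp 0.23.2 and FastQC 0.12.1, without further versions or an annotation. The authors deposited expected counts, which are estimates not scaled to depth, and TPM, in which the authors scaled each gene to its length and each library to one sum. Groups and replicate numbers came from the titles.

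Of 57180 identifiers, 51884 had a symbol in the table of gene names used here, and exon overlaps were read from GENCODE M21 on GRCm38. Counts were rounded, filtered with filterByExpr (17639 genes left), scaled by TMM and fitted in edgeR 4.0.16 (R 4.3.3) by quasi-likelihood, with genotype as the only term, an F-test, Benjamini-Hochberg adjustment over all genes tested and a threshold of 0.05. DESeq2 1.42.0, limma 3.58.1 and other scalings, filters and sets of libraries were alternatives. Scripts were tested on simulated counts. TPM was rescaled over the genes tested. Mitochondrial tRNA genes took 15.6% and 15.8% of the TPM in replicates 2 and 3 of the Tcf4+/- group and 0% in the other libraries, and TPM of every other gene is lower there by construction. Fold changes and their tests therefore come from counts, and TPM serves mainly for levels between genes, sums and shares. Replicates 2 and 3 of the Tcf4+/- group also had shorter fragments, which counts do not remove. Their median gap between gene length and effective length was 155 and 150 bases, against 211 to 241 bases in the other libraries. No Col8a2 library shared this difference, and its part in the fold changes was not tested. Single genes are set between groups in CPM, with TPM given beside it for Ltbp4, Tgfbr1 and Tgfbr3. Sums were also taken on TPM without those tRNA genes, an alternative added after seeing the data. A count of 0 allows up to 3 counts, for counting error only. No 2 libraries agreed within sampling noise.

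The members and lists were chosen with earlier results of these data known. Values are given in every library for the 10 members of smallest p and the member of highest level in each role, for 4 other pathway genes of smallest p, and for Tcf4. Further members were given after their values were seen.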

Additional observations from a re-analysis of the deposited data

How the results depend on the processing

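The count of members called was 0 higher and 0 lower under each of the 18 alternatives, and so was that of the other pathway genes. Over all genes, DESeq2 called 76 higher and 31 lower, and leaving out 1 library gave 0 to 2 higher and 0 to 2 lower, the calls coming without Col8a2 replicate 3. The members' median log2 fold change was between -0.38 and 0.17 when 1 library was left out, and between -0.32 and -0.07 under other settings. On the TPM scales the median of all genes moved to between -0.18 and -0.15, and that of the members to between -0.32 and -0.28. The mean TPM of the leading gene of each role moved by less than 1 SD on TPM as deposited and on TPM without mitochondrial tRNA genes, a scaling chosen after seeing the data. The fitted direction of the 10 members of smallest p and of the 4 other pathway genes named was kept wherever they were tested. Tcf4 turned sign on the 3 TPM scales, with a log2 fold change of -0.0711 on log2(TPM + 1) as deposited, -0.0677 on log2(TPM + 1) rescaled and -0.0718 on log2(TPM + 0.1) as deposited. With 1 library left out, Ltbp4 ranged from 0.64 to 1.4, Smad1 from 0.60 to 1.24, Smad3 from -1.17 to -0.54, Nog from -1.62 to -0.30, Ccn1 from -1.24 to -0.20 and Grem1 from 0.51 to 4.68, with the lowest edgeR or other adjusted p for these at 0.544, for Ltbp4 by DESeq2.

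The replicate number as a replicate block gave a members' median of -0.10 and 0 calls. Deviations of same-numbered libraries correlated at -0.04, 0.24 and -0.04, and those of differently numbered ones at -0.16 to 0.16. The highest value was that of replicate 2 of both groups. With so few libraries this check cannot decide whether the numbers pair them. With 3 libraries a group, most members' intervals still hold a change of 2-fold.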

Other observations

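The ratio of Smad3 to Smad1, chosen after the values were seen and so given with no test, was 1.27, 0.833 and 0.353 in the Tcf4+/- libraries, against 1.38, 2.11 and 6.90 in the Col8a2 libraries. The groups did not overlap, by a small gap between Tcf4+/- replicate 1 and Col8a2 replicate 1. A ratio taken within a library does not depend on its scaling, though it does on its cell content. The ratio of summed TGF-beta to BMP ligands was 1.4, 1.64 and 2.05 in the Tcf4+/- libraries, against 0.704, 0.914 and 2.21 in the Col8a2 libraries (exact permutation test, p = 0.4).

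Among members of at least 10 TPM, Tcf4+/- replicate 3 was the lowest library for 13 of 22, or 59.1%, against 27.9% of 7254 genes of at least 10 TPM. Tcf4+/- replicate 1 was the lowest library for 0 of the 43 members, against 10.6% of all genes tested. Pmepa1, a target of TGF-beta that limits its signal, did not follow the matricellular targets, with 67.0, 164 and 223 CPM in the Tcf4+/- libraries, against 121, 127 and 110 CPM in the Col8a2 libraries, so it was highest in the library where Ccn1, Ccn2 and Thbs1 were lowest. Pmepa1 was named after its values were seen.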
